A study of Mus musculus with 6 samples.

Results

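Zygotes of the genotype Pabpn1l-null were compared with wild-type (WT) zygotes of the mouse in RNA that had been labelled with 4-thiouridine (S4U). The comparison covers 4 of the 6 samples of the series, 2 Pabpn1l-null and 2 WT samples, chosen by the stage and genotype in their labels. The other 2 samples are WT 2-cell embryos, whose values are given beside some genes for orientation. Per the labels, each sample held 50 zygotes of mated females, taken 26 h after the hCG injection that triggers ovulation and kept for 2 h in medium with 200 μM S4U. The same protocol text stands for all 6 samples, so label, removal of rRNA and alkylation (with iodoacetamide) are described alike for both genotypes. The stated zygote protocol also stands for the 2-cell samples. How well each step worked in each library was not tested. The labels give neither the strain, the age of the females, the deleted part of Pabpn1l nor whether the allele was missing in the mother, the father or both.

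PABPN1L binds poly(A) tails in the oocyte and the early embryo. It works with the adaptor BTG4, which brings the CCR4-NOT deadenylase to maternal mRNAs so that their tails are shortened and the mRNAs are destroyed after meiosis resumes. The series title links the clearance of maternal mRNA to transcription that starts too early. S4U is a uridine analogue that cells build into new RNA. Once alkylated, it is read as C, which shows as T-to-C mismatches, so a read with such a mismatch (a T-to-C read) may come from RNA made during labelling. No sample without label is listed, and an unknown part of the T-to-C reads may therefore come from sequencing error or from differences in sequence.

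The deposited table gave each group 1 pair of columns, with a gene's total reads and its T-to-C reads, so the replicates of a group could not be compared. Every test below compares the libraries behind 2 columns, not 2 genotypes. Named genes had 3001472 reads for WT and 1270347 for null zygotes, with 9544 and 7676 genes at 10 or more reads. Null reads were clumped at low counts. Where the WT level predicted 3 to 5 null reads (1295 genes), 58.3% of genes had none, against 2.45% if reads were independent. In the WT column the number of genes fell steadily with the count, from 977 at 1 read to 244 at 10. In the null column it was 184 at 1 read and 298 at 5. The clumps of the null column were the reason to count 7 reads as 1 molecule, which was done in both columns. Calls with the null column alone treated in this way are given below. A gene was called where the exact conditional binomial test on molecules gave a Benjamini-Hochberg adjusted p under 0.05 and the scaled ratio of null to WT was at least 2 or at most 0.5. Ratios are given with exact 95% intervals. These cover counting error only, since reads without molecular identifiers are not independent molecules. In bulk samples of this kind, fewer copies per embryo and fewer embryos that carry a transcript cannot be told apart.

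The targeted gene Pabpn1l lies on chromosome 8 (GRCm38, 122619471 to 122622735). It was covered by 47 reads in the WT column, 4 in the null column and 14 in the 2-cell column. 0 of them were T-to-C reads. The ratio of null to WT was 0.268 (0.00716 to 2.51), a difference within counting error for the library labelled null. Of the 17 other tested genes within 500 kb, 0 were called. The closest neighbours were Galns, a lysosomal sulfatase gene with 36 WT and 0 null reads, and Cbfa2t3, a corepressor gene with 166 and 54 reads. The replication licensing gene Cdt1, also in this interval, had 351 and 188 reads and a ratio of 1.21 (0.734 to 1.99).

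In total reads, 82 of 11262 tested genes were higher in null zygotes and 79 were lower. These are 0.728% and 0.701% of the genes tested, and 1.43% for both directions. Without the demand of a 2-fold difference, 133 genes were higher and 183 lower at the same adjusted p, and 1207 genes had an unadjusted p under 0.05. The median log2 ratio of all tested genes was -0.15. Among the 4464 genes with a mean of at least 70 scaled reads over both zygote columns it was -0.05. 78 of these genes (1.75%) were called higher and 78 (1.75%) lower, while 260 (5.82%) had a ratio of at least 2 and 289 (6.47%) a ratio of at most 0.5. Calls depended on level. At 7 to 35 scaled reads 0 of 3119 genes were called higher, against 21 of 724 at 350 to 700. The shares of all tested genes given beside the lists below are not matched for level. Scaling by TMM factors places the bulk of genes near a ratio of 1, so ratios are relative to the column. The medians and the even split therefore cannot show whether the amount of RNA per zygote differed, which was not tested. No gene with a mean of 3500 or more reads was called lower, while 4 of these 56 genes were called higher, Gdf9, Rn45s, Slc45a3 and Dcp1a. How far the calls reach depends on the assumed error. With 7 reads per molecule in the null column alone 371 genes were called (239 higher), and with every read a molecule 2730 (1167 higher). edgeR's exact test at an assumed biological variation of 0.4 called 25 genes higher and 112 lower, and just 4 of the 161 genes were among them, Atp6v1g1, Hat1, Mpi and Unc5a. All other genes described below as higher or lower in total reads passed the counting test but not this one. The number of genes called in total reads also moved with the scale: with column totals in place of TMM factors 100 genes were higher and 64 lower, a share of 61.0% higher against 50.9%.

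**Figure D1:**
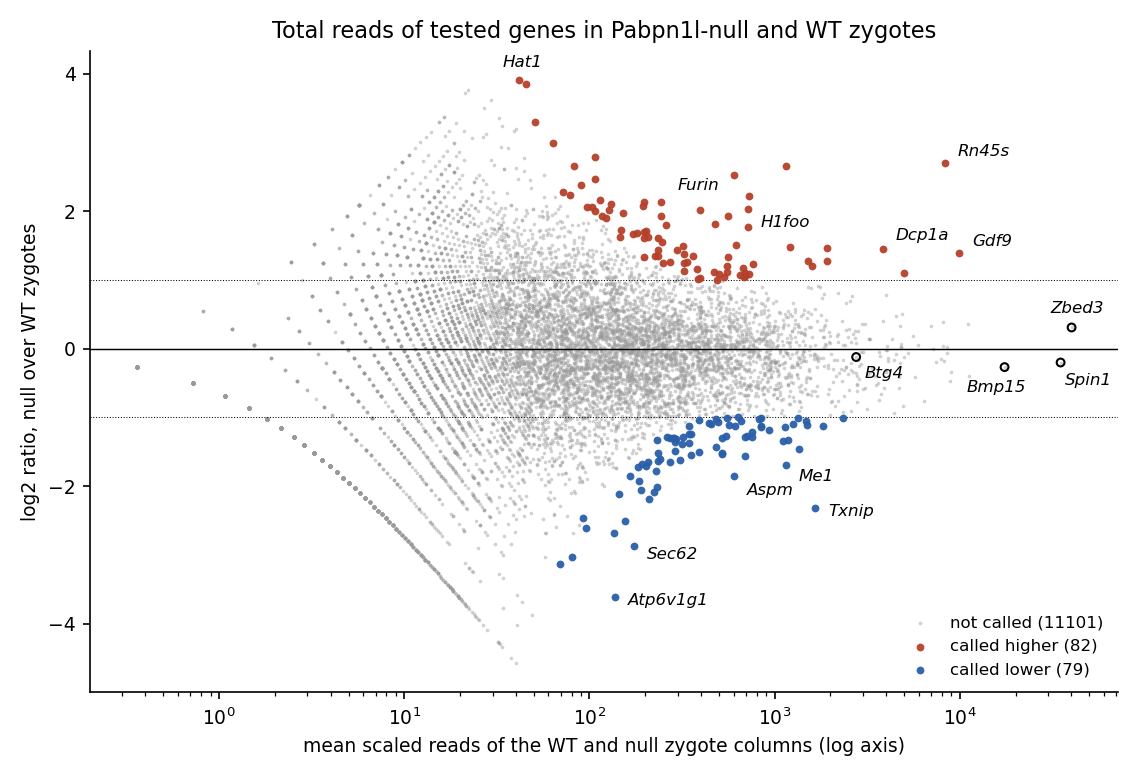
Each point is 1 of 11262 tested genes, placed by its mean scaled reads over both zygote columns (log axis) and its log2 ratio of null to WT total reads. Red points were called higher (82), blue points lower (79), open circles mark 4 abundant uncalled transcripts, and dotted lines stand at 2-fold. Gdf9 and Rn45s lie above the 2-fold line at the right, where Spin1, Zbed3 and Bmp15 lie close to 0.

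The genes for which both total and T-to-C reads were called higher were Gdf9, Furin and Rn45s. They are the growth factor GDF9 of the oocyte, the protease FURIN that cleaves precursors of secreted proteins, and the precursor of ribosomal RNA. To show where transcription of these and of the most clearly lower gene starts, the 250 bases before the start site are printed for those with a RefSeq entry (GRCm38.p6), with the linker histone gene H1foo, whose current symbol is H1f8. Capitals mark CCAAT or its reverse complement ATTGG, and TATAAA or its reverse complement TTTATA. Of 32851 RefSeq promoters of this length, 33.8% hold the first motif and 12.4% the second. Furin has 2 annotated starts, the distal at chr7:80405437-80405686 (minus strand) and the proximal at chr7:80402813-80403062 (minus strand). H1f8 lies at chr6:115944681-115944930 (plus strand) and Txnip at chr3:96557707-96557956 (plus strand). The motifs are matches of letters and were not tested for binding.
Furin, distal start: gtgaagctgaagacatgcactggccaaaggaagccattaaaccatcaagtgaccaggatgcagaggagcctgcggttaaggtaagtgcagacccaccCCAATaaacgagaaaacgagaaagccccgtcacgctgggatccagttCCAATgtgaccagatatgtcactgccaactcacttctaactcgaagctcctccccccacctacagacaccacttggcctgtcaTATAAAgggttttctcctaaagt
Furin, proximal start: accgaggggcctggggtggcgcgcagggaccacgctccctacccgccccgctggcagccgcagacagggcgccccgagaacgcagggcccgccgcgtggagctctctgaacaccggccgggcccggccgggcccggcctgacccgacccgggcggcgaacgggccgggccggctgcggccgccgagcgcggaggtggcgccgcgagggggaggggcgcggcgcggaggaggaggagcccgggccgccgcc
H1f8: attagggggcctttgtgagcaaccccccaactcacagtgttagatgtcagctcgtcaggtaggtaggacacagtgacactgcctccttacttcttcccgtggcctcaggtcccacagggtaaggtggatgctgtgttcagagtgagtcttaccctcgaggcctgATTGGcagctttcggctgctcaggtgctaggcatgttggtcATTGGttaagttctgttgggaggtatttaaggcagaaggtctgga
Txnip: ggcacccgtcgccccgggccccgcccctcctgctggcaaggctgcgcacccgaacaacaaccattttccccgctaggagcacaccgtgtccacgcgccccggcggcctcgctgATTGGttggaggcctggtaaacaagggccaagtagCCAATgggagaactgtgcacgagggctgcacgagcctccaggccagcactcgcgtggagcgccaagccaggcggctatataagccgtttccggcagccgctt

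The distal Furin start has 2 CCAAT motifs and 1 TATAAA motif, and the proximal start has 0 of both. H1f8 and Txnip have 2 CCAAT motifs each and 0 TATAAA motifs. The table counts reads per gene, so the start that was used could not be told from it.

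Gdf9, on chromosome 11 at 53430774 to 53437904, had 7594 reads in the WT column, 8846 in the null column and 1968 in the 2-cell column. Although the null column held less than the WT column in total, it held more reads of this gene, and the scaled ratio was 2.63 (2.42 to 2.86, adjusted p 1.6e-115). Its T-to-C reads numbered 149 (WT) and 269 (null), a ratio of 3.98 (2.34 to 7.33). The T-to-C share of its reads was 1.96% and 3.04%, a difference that was not called. BMP15, which acts together with GDF9 on the follicle, showed a different value. Bmp15 had 26444 WT and 9708 null reads, a ratio of 0.829 (0.779 to 0.882) that missed the 2-fold demand, and 507 and 234 T-to-C reads.

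Furin, on chromosome 7 at 80389194 to 80405441, had 352 reads in the WT column, 734 in the null column and 539 in the 2-cell column, giving a null-to-WT ratio of 4.66 (3.36 to 6.78). T-to-C reads numbered 2 in the WT column, 64 in the null column and 4 in the 2-cell column. The T-to-C ratio of 21.8 had a lower end of 4.46 and no upper end, since 2 reads count as 0 molecules. Its adjusted p was 0.027, and with the total of T-to-C reads as the scale it was 0.12, at which the call was lost. The T-to-C share of Furin was 0.568% (WT), 8.72% (null) and 0.742% (2-cell), and the share test did not call it. In the list of oocyte growth factors and proprotein convertases, 2 of 9 tested members were higher and 0 lower, namely Gdf9 and Furin. Of all tested genes 0.728% were higher and 0.701% lower. The list was chosen with earlier results known, and its 2 calls are those already given. Bmp6, another growth factor, had a ratio of 1.39 (0.866 to 2.20) and was not called.

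Rn45s had 3078 reads in the WT column, 8884 in the null column and 189290 in the 2-cell column, giving a null-to-WT ratio of 6.51 (5.84 to 7.28). Its T-to-C reads were 1097 (WT) and 1699 (null), a ratio of 3.49 (2.85 to 4.30). The T-to-C share was 35.6% in WT and 19.1% in null zygotes, the 1 gene of 5999 (0.0167%) called lower in share. Ribosomal RNA had been depleted during library making, and how completely this worked in each library was not tested. Lars2, the leucyl-tRNA synthetase of mitochondria, had 1414 reads in the WT column, 1730 in the null column and 16693 in the 2-cell column, with a ratio of 2.76 (2.28 to 3.34). Its T-to-C share was also high in WT zygotes and lower in null zygotes, 55.7% and 36.9%, and was not called. In 2-cell embryos the share was 3.19% for Rn45s and 5.94% for Lars2. Whether reads counted for Lars2 came from other RNA was not tested. Of the 29 tested members of the list of non-coding RNAs, Rn45s was the 1 member called. Rpph1, the RNA subunit of RNase P, had a ratio of 0.992 (0.631 to 1.49).

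Another gene of the oocyte was higher in null zygotes. H1foo, the linker histone of oocytes, had 387 and 709 reads and only 61 in 2-cell embryos, a null-to-WT ratio of 4.10 (2.96 to 5.87). Its T-to-C reads numbered 5 and 2. These were too few for the test of T-to-C reads, and its T-to-C share (1.29% and 0.282%) was not called. Whether labelled RNA of H1foo differed between the columns was therefore not tested.

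The next list holds genes for protein import into the endoplasmic reticulum (ER), folding and vesicle coats. Of its 43 tested members 2 were higher and 1 was lower, beside 0.728% and 0.701% of all tested genes. Outside the list, Ern1, which encodes the ER stress sensor IRE1α, had 886 WT and 1095 null reads, a ratio of 2.78 (2.18 to 3.54). Its T-to-C reads numbered 5 and 42, a difference that was not called. The higher members were P4hb, a protein disulfide isomerase, with 182 and 209 reads (2.55, 1.49 to 4.59), and Sec24c, a coat protein of vesicles that leave the ER, with 126 and 186 (3.25, 1.80 to 6.53). The lower member was Sec62, which helps proteins enter the ER, with 428 WT and 24 null reads, a ratio of 0.136 (0.0223 to 0.340). Of the 27 members of this list at 70 or more scaled reads, 2 were past 2-fold upwards and 6 downwards, with a median log2 ratio of 0.06 beside -0.05 for all genes of that level.

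Further named genes called higher were the following. Ttyh3, an anion channel gene, had 322 and 548 reads (3.80, 2.63 to 5.64), and Tapt1, a transmembrane protein gene, had 214 and 390 (4.05, 2.59 to 6.55). Steap2, a metalloreductase gene, had 122 and 243 reads (4.37, 2.54 to 8.85), and Zdhhc8, a palmitoyltransferase gene, had 290 and 455 (3.50, 2.39 to 5.43). Ptprf, a receptor phosphatase gene, and Sh3gl1, an endophilin gene, had ratios of 6.27 and 4.38. Vwa2 and Ppapdc2 had 6.87 and 4.23. Hat1, a histone acetyltransferase gene, had 3 WT and 50 null reads, Unc5a, a netrin receptor gene, had 4 and 54, and Mpi, an enzyme gene of mannose metabolism, had 9 and 58. For these 3 genes the WT column held at most 1 molecule, so the upper ends of their intervals lay above 800 or were missing. Txndc11, a thioredoxin-domain gene, had 16 and 71 reads (7.92, 2.41 to 106).

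Of the genes called lower, Txnip had the interval farthest from 1. It encodes an inhibitor of thioredoxin and of glucose uptake, on chromosome 3 at 96557957 to 96561857. Txnip had 3839 reads in the WT column, 340 in the null column and 637 in the 2-cell column, giving a null-to-WT ratio of 0.201 (0.148 to 0.271). Its T-to-C reads numbered 130 and 18, a ratio of 0.338 (0.0676 to 1.21) that was not called. Txndc9, a thioredoxin-domain gene, was lower as well, with 733 and 109 reads (0.340, 0.190 to 0.586). Of 23 tested genes of the thioredoxin and glutathione systems 2 were lower and 1, Txndc11, was higher. The shares of all tested genes were 0.701% lower and 0.728% higher. Thioredoxin reductase (Txnrd1) had a ratio of 1.02 (0.710 to 1.47) and was not called.

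Me1, the cytosolic malic enzyme that yields NADPH, had 2440 WT reads and 334 null reads, a ratio of 0.311 (0.225 to 0.421). 2-cell embryos held 2792. Atp6v1g1 encodes part of the pump that acidifies lysosomes. It had 357 WT and 11 null reads, a ratio of 0.0821 (0.0104 to 0.337). It was the 1 called member of 27 tested genes of this pump and of lysosomes, beside 1.43% of all tested genes. Of the 14 members of that list at 70 or more scaled reads 3 lay above a log2 ratio of 0 and 11 below, with a median of -0.42. The ratio was 0.871 (0.669 to 1.13) for Atp6v0c and 0.803 (0.530 to 1.21) for Atp6v1b2, and neither was called.

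Other named genes called lower had these values. Aspm, which acts at spindle poles, had 1320 reads in the WT column, 160 in the null column and 81 in the 2-cell column (0.276, 0.170 to 0.425). Elavl2, an RNA-binding protein gene of oocytes, had 2207 and 382 reads (0.392, 0.291 to 0.527), and Tnrc6b, a partner of Argonaute in silencing by microRNAs, had 1079 and 163 (0.344, 0.208 to 0.525). Polr3f, a subunit of RNA polymerase III, had 516 and 55 (0.248, 0.102 to 0.507). Fnip1, a regulator of AMPK and mTOR signalling, had 331 and 21 reads (0.156, 0.0287 to 0.448), and Vti1b, a SNARE gene of late endosomes, had 428 and 44 (0.241, 0.0785 to 0.512).

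Further lower genes with many reads were Fndc3a (2763 and 445 reads), the mitochondrial fission gene Gdap1 (2335 and 411), the recombination mediator gene Sfr1 (1438 and 213) and the p53 target Trp53inp1 (1070 and 164). Their ratios lay between 0.337 and 0.399. Lin52, a subunit of the DREAM repressor of cell-cycle genes, had 202 and 9 reads (0.122, 0.00191 to 0.470). Tril, with 177 and 7 reads, lost its call with column totals or without a filter on low counts, and Cwf19l2 had 231 and 15. On the CPM scale with TMM factors, 2-cell embryos were below WT zygotes for Aspm (20.9 against 441), Txnip (164 against 1284), Fndc3a (234 against 924), Sec62 (19.9 against 143) and Me1 (721 against 816). They were above WT zygotes for Elavl2 (816 against 738), Gdap1 (1085 against 781) and Tnrc6b (769 against 361).

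**Figure D2:**
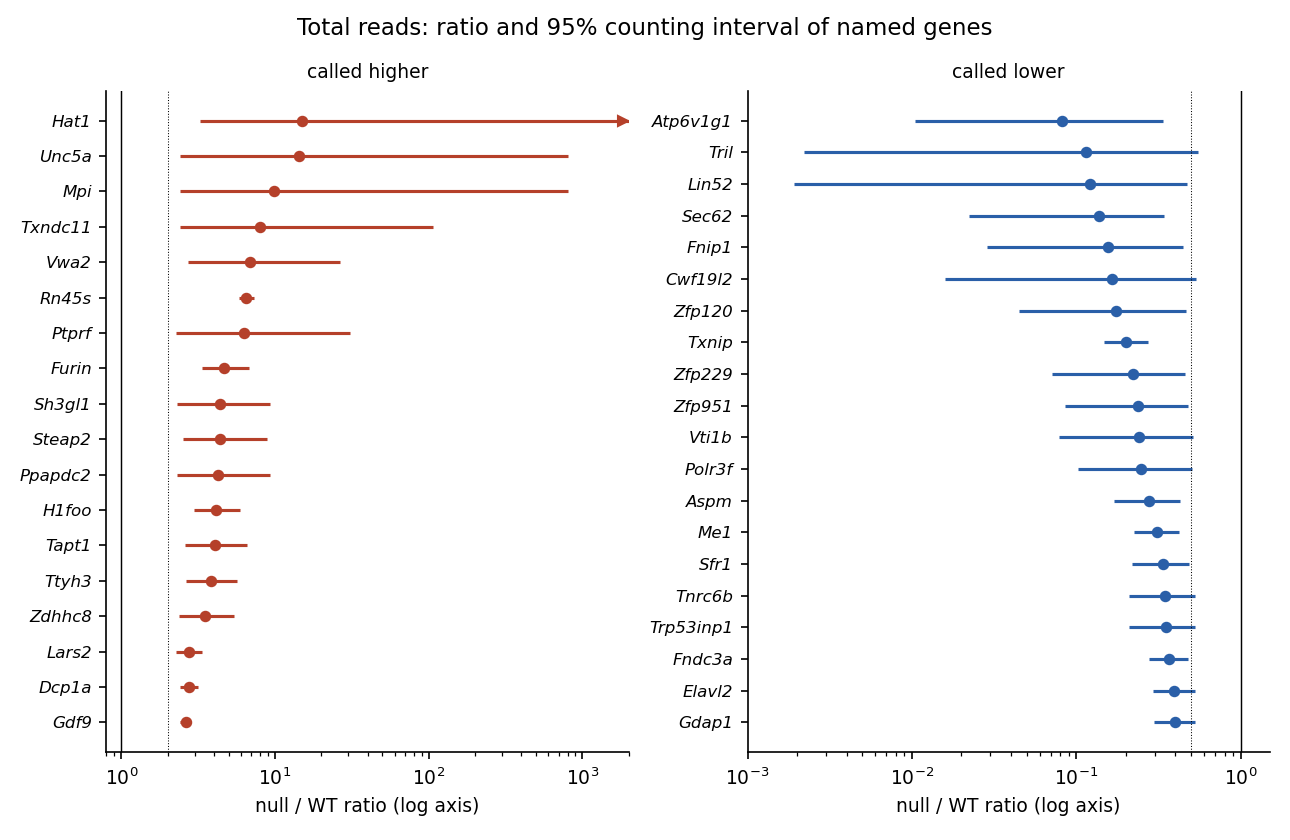
Points give the null-to-WT ratio of total reads (log axis) of 18 named genes called higher and 20 called lower, and bars their exact 95% counting intervals. The arrow marks an interval without an upper end (Hat1), solid lines stand at 1 and dotted lines at 2-fold. Intervals were narrow for Gdf9, Rn45s and Dcp1a and widest for Hat1, Unc5a, Mpi, Tril and Lin52.

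The machinery that removes maternal mRNA was then examined by role. Over all tested genes 0.728% were called higher and 0.701% lower. Among 19 tested genes of poly(A) tail shortening, 0 were higher and 2 were lower, both of them CCR4-NOT genes. Cnot2, a scaffold subunit, had 655 WT and 131 null reads (0.456, 0.263 to 0.753), and Cnot4, a ubiquitin ligase of the complex, had 363 and 43 (0.277, 0.0915 to 0.607). Cnot2 lost its call with column totals and Cnot4 with the sum of all distinct rows of a gene. Btg4, the adaptor that works with PABPN1L, had 3984 WT reads and 1619 null reads, a ratio of 0.918 (0.784 to 1.07). The deadenylases Cnot6l (0.584, 0.478 to 0.709) and Cnot7 (0.908, 0.726 to 1.13) and the adaptor Tob2 (1.49, 1.19 to 1.86) were not called. The median log2 ratio of the 13 members at 70 or more scaled reads was -0.07.

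Of 14 tested poly(A)-binding proteins and partners 0 were called in either direction. The 9 members at that level had a median of -0.31, and 8 of them lay below 0. Paip2b, an inhibitor of cytoplasmic poly(A)-binding protein, had 6115 WT and 2185 null reads (0.807, 0.706 to 0.919), and its activator Paip1 had 1747 and 513 (0.664, 0.501 to 0.859). Among 28 tested genes of poly(A) tail making, Cpsf4l, a relative of a cleavage factor subunit, was higher with 482 and 463 reads (2.16, 1.52 to 3.07). Fam46c, a non-canonical poly(A) polymerase gene, had 8604 and 4799 reads (1.26, 1.15 to 1.39), and Cpeb1, which drives tail extension in the oocyte, had 1074 and 568 (1.19, 0.902 to 1.58).

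Decapping and storage genes included 3 higher and 0 lower members of 23 tested, beside 0.728% and 0.701% of all tested genes. At 70 or more scaled reads, a level that 16 of the members reached, 1.75% of genes were called higher and 1.75% lower. Dcp1a, an activator of the decapping enzyme, had 2858 reads in the WT column, 3464 in the null column and 1389 in the 2-cell column (2.74, 2.40 to 3.13). Lsm14b, a repressor of translation in oocyte ribonucleoprotein particles, had 1549, 1659 and 471 (2.42, 2.01 to 2.92). Zar1, which binds and stores maternal mRNA, had 575, 577 and 71 (2.26, 1.64 to 3.11). The decapping enzyme gene Dcp2 had a ratio of 0.594 and Ddx6, a helicase of the same particles, one of 0.703, and neither was called. The list's median was 0.13. Eif4e1b, the cap-binding protein of oocytes, gave 29.3% of the reads of the list and had a ratio of 0.944 (0.838 to 1.07).

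Of 25 tested genes of uridylation, the exosome and nonsense-mediated decay 0 were called. At 70 or more scaled reads, 3 of 7 members had ratios above 2, Smg6 (2.47, 1.24 to 5.17), Dis3l (2.29) and the helicase gene Upf1 (2.16, 1.11 to 4.17), and the median was 0.37. Among 35 other RNA-binding regulators 0 were higher and 2 lower, Elavl2 and Mex3c, a ubiquitin ligase with RNA-binding domains (805 and 124 reads, 0.352, 0.202 to 0.584). The translational regulator Dazl had 2375 and 616 reads (0.587, 0.458 to 0.743), which did not reach 2-fold.

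Transcripts of oocyte proteins were read next. Zbed3, of the subcortical maternal complex, had 49780 WT and 27255 null reads (1.24, 1.19 to 1.29). It held 82.5% of the reads of the list of this complex and oocyte NLRP genes. Tle6, another member of the complex, was higher with 172 and 226 reads (2.91, 1.66 to 5.09), and Nlrp4f was lower with 2829 and 578 (0.462, 0.362 to 0.589). These were the 2 called members of 15 tested, beside 1.43% of all tested genes. At 70 or more scaled reads, a level that 14 of the 15 reached, 3.49% of genes were called. Padi6, needed for the cytoplasmic lattices of oocytes, had a ratio of 1.88 (1.55 to 2.29) and Ooep one of 0.748 (0.600 to 0.929).

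Among 18 tested oocyte transcription and chromatin factors H1foo was higher and 0 were lower, beside 0.728% and 0.701% of all tested genes. The Obox homeobox members with reads lay below 1 without a call, at 0.532 (0.444 to 0.634) for Obox2, 0.755 (0.643 to 0.884) for Obox5 and 0.744 (0.597 to 0.918) for Obox1. Zfp57, which maintains imprints, had 17628 and 5902 reads (0.756, 0.699 to 0.818). The list's median was -0.41, with 8 of 11 members below 0. Of 16 tested oogenesin and Pramel genes 0 were called, and 8 of 9 at the level limit lay below 0 (median -0.31). Reads of these families may be shared between similar copies. Of 8 tested zona and sperm-binding genes 0 were called, and Oosp1 had 1296 and 816 reads (1.42, 1.12 to 1.81).

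Genes of the cell cycle were read by list, beside 0.728% higher and 0.701% lower among all tested genes. Of 51 tested genes of meiotic exit and mitosis 0 were higher and 2 lower, the kinase gene Ttk of the spindle checkpoint (436 and 60 reads, 0.318, 0.143 to 0.664) and Cdc27, a subunit of the anaphase-promoting complex (1032 and 226, 0.497, 0.325 to 0.725). Cdc27 lost its call with column totals. Ccnb1, cyclin B1, had 2544 and 709 reads (0.630, 0.499 to 0.786) and Wee2, an inhibitory kinase of oocytes, had 2345 and 961 (0.926, 0.752 to 1.13). Among 52 tested replication genes Rpa1, a subunit of the single-strand DNA-binding complex, was higher with 483 and 444 reads (2.07, 1.44 to 2.95), and 0 were lower.

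Of 46 tested genes of DNA damage signalling and repair 0 were called. Chek1, the checkpoint kinase gene, had 2049 and 643 reads (0.710, 0.555 to 0.899), and Ung, uracil-DNA glycosylase, had 491 and 386 (1.77, 1.22 to 2.56). Of 26 tested p53 genes and targets Trp53inp1 alone was lower, beside 0.701% of all tested genes. Mdm4, an inhibitor of p53 that held 62.1% of the reads of this list, had a ratio of 0.868 (0.769 to 0.976), and Mdm2 had 392 and 327 reads (1.87, 1.26 to 2.84) without a call.

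Replication-dependent histone genes were not called in either direction among 57 tested, with a median of 0.02 over 21 members. Hist1h1a had 6619 and 2965 reads, a ratio of 1.01 (0.901 to 1.14). In the list of histone mRNA processing, variants and chaperones H1foo was higher, while the histone chaperone Nasp (410 and 46 reads, 0.262, 0.103 to 0.588) and Atrx, a chromatin remodeller that deposits histone H3.3 (981 and 159, 0.369, 0.228 to 0.580), were lower. This list had 23 tested members, and among all tested genes 0.728% were higher and 0.701% lower. Slbp, which binds the ends of histone mRNAs, had a ratio of 0.829 (0.698 to 0.977).

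The series title concerns early transcription, and genes of transcription and of the 2-cell program were therefore read separately. The shares of all tested genes were 0.728% higher and 0.701% lower. Among 92 tested genes of RNA polymerase II, its general factors, Mediator and elongation, 1 was higher, the Mediator subunit Med26 (609 and 578 reads, 2.14, 1.58 to 2.95), and 0 were lower. The median over 49 members was 0.00. Of 22 immediate early genes 0 were called, and Egr1 had 145 and 72 reads (1.12, 0.452 to 2.39). Of 24 tested genes of the early 2-cell program 0 were higher and 1 was lower, Arg2, arginase 2 (578 and 102 reads, 0.404, 0.219 to 0.713). Arg2 had 239 reads in 2-cell embryos, where it lay below WT zygotes on the CPM scale (61.7 against 193).

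Dux, which starts the 2-cell program, had 150 WT and 13 null reads (0.221, 0.0245 to 0.880) and was not called. It had 84 reads in 2-cell embryos. All members of this list in the table had 1995 reads in the WT column, 461 in the null column and 25906 in the 2-cell column, giving a null-to-WT ratio of 0.523 (0.394 to 0.686). Of the reads in zygotes 42.1% came from Zfp750, and only 3 members reached 70 scaled reads. Their T-to-C reads were 50, 19 and 1522 in the same order.

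Genes for making, folding and removing proteins were read by list, beside 0.728% higher and 0.701% lower among all tested genes. Of 42 tested cytosolic ribosomal protein genes 0 were called. Their summed reads were 1861 (WT) and 1380 (null), a ratio of 1.67 (1.38 to 2.02), and 6 of the 7 members at 70 or more scaled reads lay above 0, with a median of 0.80. Rpl41 had 134 and 136 reads (2.25, 1.13 to 4.51), and Rpl29 went the other way with 190 and 61 (0.732). The many pseudogenes of this family may share reads with its members. Among 66 tested mitochondrial ribosomal protein genes Mrpl14 was higher (37 and 94 reads, 5.19, 1.97 to 21.0), and the median was -0.11. Among 59 translation factors the elongation factor gene Eef2 was higher (407 and 394, 2.17, 1.48 to 3.20).

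The cytosolic chaperone gene Hspa8 was higher with 69 and 120 reads (3.74, 1.66 to 9.39), the 1 called member of 34, while Hsp90aa1 had 1987 and 472 (0.538, 0.402 to 0.698) without reaching 2-fold. Of 38 proteasome genes 0 were called (median 0.03). Among 51 genes of the respiratory chain and 26 of glucose use 0 were called, and Ldhb, a lactate dehydrogenase subunit gene that held 44.1% of the reads of the last list, had 2229 and 1723 reads (1.74, 1.47 to 2.07).

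The 2 lists with the most members are gene families. Beside them, 0.728% of all tested genes were called higher and 0.701% lower. Of 282 tested zinc finger genes named Zfp 1 was higher and 5 were lower. Zfp120, Zfp229, Zfp951, Zfp748 and Zfp709 had ratios from 0.175 to 0.423, and Zfp821 had one of 3.26 (1.80 to 6.53). At 70 or more scaled reads 38 of 118 lay above 0 and 80 below, with a median of -0.22 beside -0.05 for all genes of that level. Of 182 tested solute carrier genes 4 were higher and 0 lower. They were Slc45a3, a sugar transporter (4418 and 4191 reads, 2.14, 1.91 to 2.40), the vitamin C transporter Slc23a2 (1330 and 1355, 2.30, 1.88 to 2.83), the lysosomal peptide transporter Slc15a4 (249 and 288, 2.58, 1.60 to 4.14) and the amino acid transporter Slc36a1 (55 and 116, 4.46, 1.96 to 12.9). Of 71 solute carrier genes at the level limit 42 lay above 0 (median 0.21).

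**Figure D3:**
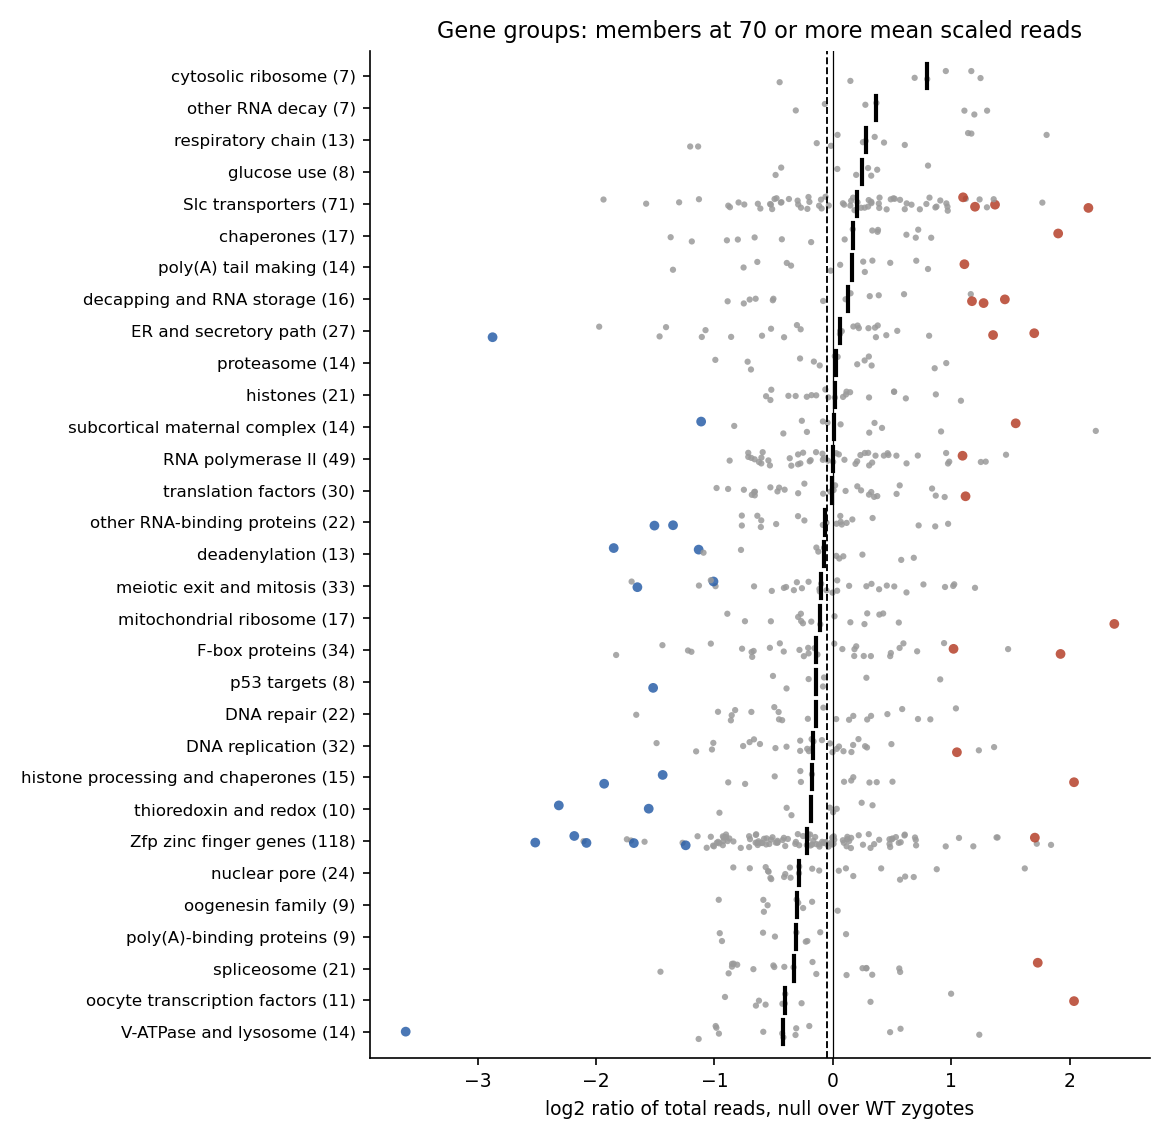
Each point is a member with a mean of 70 or more scaled reads over both zygote columns, placed by its log2 ratio of null to WT total reads, with the number of such members in brackets. Thick bars are list medians, the dashed line is the median of all 4464 genes of that level (-0.05), and red and blue points were called higher and lower. Medians ran from -0.42 for V-ATPase and lysosomal genes to 0.80 for cytosolic ribosomal proteins, and members of most lists spread to both sides of 0.

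T-to-C reads, which hold labelled RNA and an unknown background, numbered 90945 in WT zygotes and 48987 in null zygotes. Of 4376 genes tested 3 were higher (0.0686%), Furin, Gdf9 and Rn45s, and 0 were lower by the exact conditional binomial test, with 69 genes at an unadjusted p under 0.05. All 3 were also called higher in total reads, and the share test below called 0 genes higher. How far their T-to-C ratios follow total reads was not tested. The assumed-variation test of edgeR called Furin alone. Lars2 passed the adjusted p, with 787 and 638 T-to-C reads, but its ratio of 1.83 (1.38 to 2.44) missed 2-fold.

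Genes with uncalled but high ratios of T-to-C reads included the metal-response factor gene Mtf1 (3 reads in WT and 35 in null zygotes), Slc15a4 (6 and 47), Ern1 (5 and 42), the kinase gene Stk35 (49 and 99), Tmem14c (3 and 30), Ddx28 (2 and 25) and Ppp2r2d (2 and 25). Of these, Ern1, Slc15a4 and Tmem14c were also called higher in total reads, whereas Mtf1 had 965 and 403 total reads, a ratio of 0.944 (0.686 to 1.30). In 2-cell embryos Mtf1 had 135 T-to-C reads and Ern1 11. At the other end, the receptor gene Gpr1 had 122 WT and 3 null T-to-C reads, and its total reads were lower too (1484 and 268, 0.410, 0.279 to 0.574). Trim60 had 229 and 39 T-to-C reads, Aven 275 and 52, Cfl2 118 and 14, and Psma6 73 and 0.

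As a share of all reads, T-to-C reads made up 3.03% (exact interval 2.98% to 3.08%) in WT zygotes and 3.86% (3.77% to 3.95%) in null zygotes, a ratio of 1.27. In 2-cell embryos the share was 4.54%. The null share was higher in all 8 ranges of gene level. At 7 to 35 scaled reads the interval of the ratio was 0.988 to 1.36, which includes 1, and at 35 to 70 it was 1.01 to 1.33. The null share was 1.25 times the WT share without Rn45s and 1.27 times without the 10 genes with the most reads. Among genes with a mean of 3500 or more scaled reads the shares were 2.83% and 3.98%, and 47 of 56 genes had the higher share in null zygotes. Spin1, a histone reader gene with the most reads in WT zygotes, had 2.57% and 3.50%, and Bmp15 had 1.92% and 2.41%.

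By gene, the comparison depended on level. Of 5999 genes with 20 reads in both columns, 2366 had the higher share in null zygotes and 2906 the lower, with median shares of 2.04% (WT) and 1.14% (null). Over all 1338 genes with 350 or more scaled reads, 849 had the higher share in null zygotes, and the median share was 2.16% in WT and 3.04% in null zygotes. Below that level more genes had the lower share. At 140 to 350 scaled reads 695 genes had the higher and 868 the lower share in null zygotes, at 70 to 140 reads 491 and 850, and at 35 to 70 reads 280 and 616, although the summed share was higher in null zygotes in each of these ranges (3.19% and 3.73% at 140 to 350). The null column had less depth, and the part of depth in this share was not tested. The share test, on molecules, called 0 genes higher and Rn45s lower, with 49 genes at an unadjusted p under 0.05. With every read counted as 1 molecule, the genes called in T-to-C share numbered 797, of which 661 were higher.

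The 5 genes of lowest p on the higher side of the share included Ccnb1 (1.22% and 6.49%), Mtf1 (0.311% and 8.68%), Ppp2r2d (0.475% and 13.9%) and Atp6v0c (0.675% and 6.13%), and 0 of them were called. Atp6v0c shares all its values with its pseudogene Atp6v0c-ps2. On the lower side, beside Lars2 and Gpr1, were Tle6 (54.1% and 15.9%), Ica1 (54.4% and 6.25%) and Psma6 (48.0% and 0%), also without a call.

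**Figure D4:**
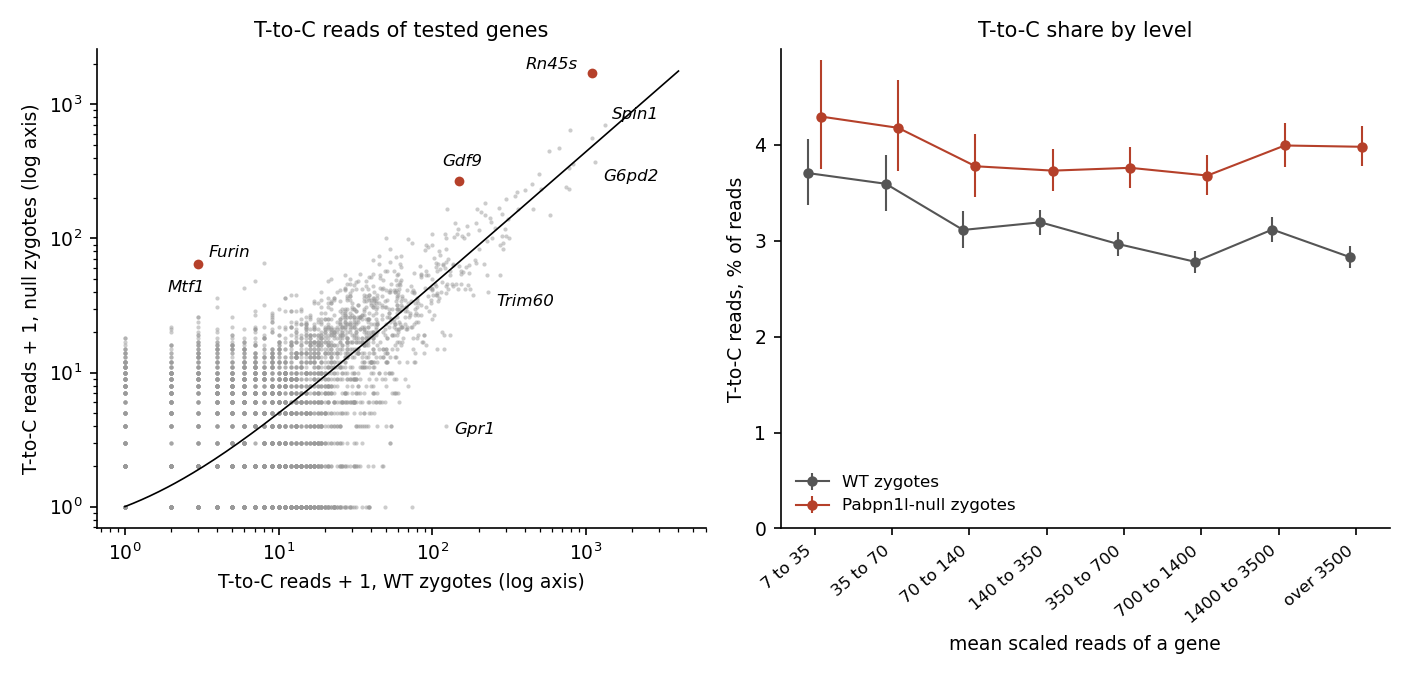
Left, T-to-C reads plus 1 of 4376 tested genes in WT and null zygotes (log axes), with the 3 called genes in red and a line for equal scaled levels. Right, the T-to-C share of reads in 8 ranges of gene level, with exact 95% intervals on molecules. The null share lay above the WT share in each range, from 1.16 times at 7 to 35 scaled reads (interval of the ratio 0.988 to 1.36) to 1.41 times at 3500 or more.

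Genes called lower were longer than those called higher in genomic span, the distance from the start to the end of the RefSeq gene, introns included. The median span was 43.4 kb for 79 genes called lower and 23.5 kb for 81 of 82 genes called higher, beside 24.3 kb for all tested genes and 28.6 kb for genes at 70 or more scaled reads. When the 4435 genes of that level with a span were divided into 5 equal parts by span, the median log2 ratio went from 0.07 in the shortest to 0.00, -0.09, -0.11 and -0.15 in the longest. In the shortest part 18 genes were higher and 7 lower, and in the longest 12 were higher and 25 lower. Tnrc6b is among the long genes called lower. Span is not transcript length, and the part of RNA quality in this difference was not tested.

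**Figure D5:**
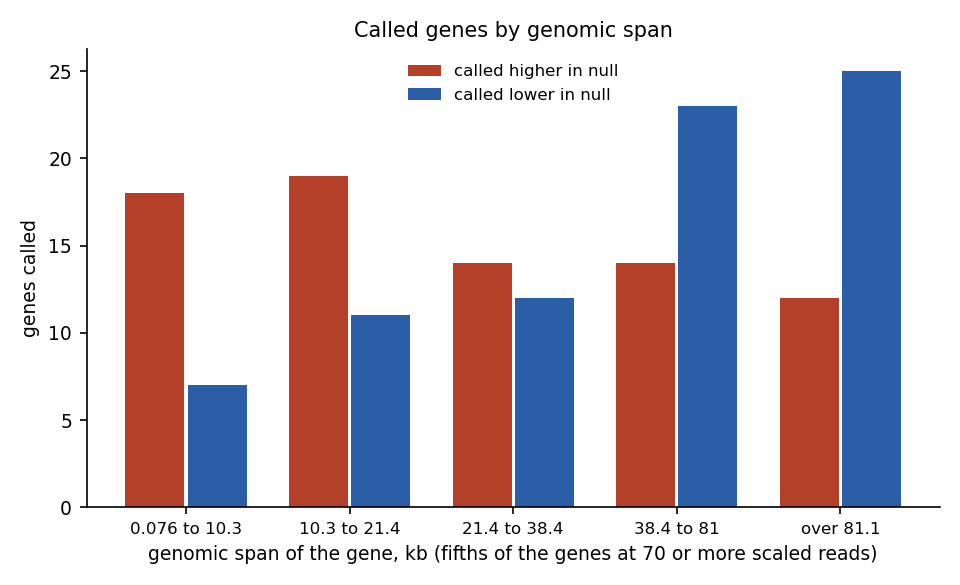
Bars count the genes called higher (red) and lower (blue) in null zygotes in each of 5 parts of equal gene number, ordered by genomic span (kb), over the 4435 genes with 70 or more scaled reads and a span. Lower calls grow from 7 in the shortest to 25 in the longest part, and higher calls go from 18 to 12.

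The identity of the samples was checked with markers. The 15 markers of oocytes and zygotes were all tested and had 47560 WT and 25846 null reads. Gdf9, Zar1, H1foo and Tle6, 4 of the 15, were called higher, beside 0.728% of all tested genes. At 70 or more scaled reads, a level that 13 of the 15 reached, 1.75% of genes were called higher. Markers of other cells had few reads. The 20 markers of cumulus and granulosa cells had 156 WT and 31 null reads, with 12 of them at 0 in both, and 0 of 6 tested were called. The 15 sperm markers had 453 and 280 reads, of which 96.9% came from Odf2. The 11 blood and immune markers had 52 reads and 1 read, with 8 at 0 in both columns.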

How the data were processed

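The series gave total RNA of mouse zygotes and 2-cell embryos. The deposited table holds counts made by the authors, namely reads and T-to-C reads per row in 1 column pair per group, with 3 columns of Positive or Negative calls that were not used. The sources used here do not say whether a pair merges both samples, nor name the aligner, the counter, the annotation or the handling of duplicates. Per the submitters' processing notes, the genome build was mm10. Of 30493 rows, 47 with a date for a name were dropped, and each of 23259 names was represented by its row of highest summed reads. In 14 sets, names with at least 200 reads share all values. RefSeq on GRCm38.p6 gave positions for 11182 of 11262 tested genes.

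Columns were scaled by TMM factors from edgeR 4.0.16 (R 4.3.3), 0.996 for WT zygotes, 1.04 for null zygotes and 0.963 for 2-cell embryos. The other tests used Python 3.11.15 and scipy 1.17.1. The exact conditional binomial test took the place of a model with replicate error, which 1 column per group does not allow. Genes needed 20 reads over the 3 columns for total reads and 10 T-to-C reads for T-to-C reads. The share was tested by Fisher's exact test on molecules for genes with 20 reads in both zygote columns. Ratios add 0.5 molecule, scaled to column size. A count of 0 allows 3 molecules, or 21 reads. The tests were tested on simulated data.

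The genes, lists and tests were chosen with earlier results of these data known. Named are Pabpn1l, the 20 called genes per direction whose interval lies farthest from 1, called genes and the next by rank for T-to-C reads (8 per direction) and share (5), called members and the 4 members with most reads of each list, the 10 genes with most reads per zygote column, and genes at 0 in 1 zygote column (5 each way). Predicted and unnamed genes and pseudogenes were left out. Some genes that the rule names are not reported here. Outside this rule, Dis3l, Dcp2, Ddx6, Galns, Cbfa2t3 and Cdt1 were picked by role or position after their values were seen.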

Additional observations from a re-analysis of the deposited data

How the results depend on the processing

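No paired analysis was possible because the table holds 1 column pair per group, so neither the replicate block nor leaving out a replicate could be run. The genes called in total reads, 161, numbered 155 to 184 with RLE factors, column totals, 3 other filters or summed rows. They numbered 2730 (1167 higher) with every read counted as 1 molecule and 371 (239 higher) with 7 reads per molecule in the null column alone. edgeR's exact test called 137 but kept 4 of the 77 named calls. The 3 genes called in T-to-C reads became 860, 9 and 1 in the same order, and the 1 of genes called in T-to-C share became 797 (661 higher) with every read a molecule; the cause was not tested. The ratio of T-to-C shares, 1.27, was 1.16, 1.16, 1.21, 1.17, 1.27, 1.32, 1.28 and 1.41 from the lowest to the highest range of level and 1.32 at 350 reads or more. It was 1.28 without the 150 genes at 10% or more in both zygote columns. The last 2 alternatives were chosen after seeing the data. Of 39 lists with at least 6 members at the level limit, 20 had a median above that of all genes, against 25 of 42 at 35 reads and 15 of 35 at 140. With RLE factors 0 of the named calls were lost, and Cdc27, Cnot2 and Tril lost theirs with column totals. No called gene among the named reversed its direction under these alternatives. The null column, with 1270347 reads, limits what can be called.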

Other observations

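Some genes had reads in only 1 of the zygote columns. The null column was at 0 for 293 genes with more than 21 reads in WT zygotes, and the WT column for 2 genes with more than 21 reads in null zygotes. The null column has less depth (1270347 against 3001472 reads) and clumped reads, and the part of both in these zeros was not tested. Rhbdd2, a rhomboid-like gene, had 111 reads in WT zygotes and 0 in null zygotes, with an upper end of 0.586 for the ratio of null to WT. Lypd6 (105 reads, upper end 0.630), the DNA repair helicase gene Ercc2 (93 reads), the pantothenate kinase gene Pank3 (90 reads, upper end 0.741) and Psg17 (89 reads, upper end 0.741) followed, and 0 of the 5 were called. Pank3 had 3072 reads in 2-cell embryos. In the other direction Lefty2, an inhibitor of Nodal, had 27 reads in null zygotes and 0 in WT zygotes, with a lower end of 1.49 for the ratio, without a call.

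In 150 genes at least 10% of reads were T-to-C reads in both zygote columns, 24.9% of their reads in WT and 23.4% in null zygotes. G6pd2, a testis copy of a glucose-6-phosphate dehydrogenase gene, had shares of 59.1% (WT), 62.5% (null) and 62.5% (2-cell). Csl had 85.5%, 76.1% and 91.2%.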
